A study of Mus musculus with 6 samples.

Results

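The Sox genes encode transcription factors that bind DNA through an HMG box. Chromatin accessibility at 10 of them (Sox2, Sox4, Sox5, Sox6, Sox8, Sox9, Sox11, Sox12, Sox13 and Sox17) was followed in mouse nephron progenitors at E14.5 and at birth. A region was assigned to a gene when its midpoint lay in the RefSeq gene body or within 50 kb of it, which gave 49 of the 43523 distinct regions of the count table. No region was assigned to more than 1 of the genes. Nephron progenitors are the self-renewing cells of the outer embryonic kidney from which the epithelium of the nephrons arises. They came from CD1 mice, with no transgene or treatment named in the labels for either stage. Each of the 3 libraries at E14.5 (mid-gestation) and the 3 at P0 (the day of birth) was made from the pooled kidneys of 1 litter, so a library averages several animals. Cells were captured with antibodies against Itga8, and ATAC-seq was applied, in which sequencing adapters are cut into exposed chromatin by the transposase Tn5, and more counts in a region mean easier access to it.

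Sox proteins fall into groups by the similarity of their HMG boxes. Sox2, of the SoxB1 group, is best known from pluripotent and neural stem cells. Sox4, Sox11 and Sox12 form the SoxC group of activators in embryonic progenitors, and Sox4 and Sox11 act in the developing kidney. Sox5, Sox6 and Sox13 form the SoxD group, which lack an activation domain of their own, act with partner factors and are best known from cartilage. Sox8 and Sox9, of the SoxE group, act in branching of the ureteric epithelium, and Sox17, of the SoxF group, is known from endoderm and endothelium. In a chromatin assay of a bulk isolate, fewer cells of a type and less accessibility per cell cannot be told apart.

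RefSeq start sites of build GRCm38.p6, the assembly also called mm10, were listed for 8 of the 10 genes, with 13 starts in all. Of these starts, 6 lay in a region of the table, at 4 genes (Sox4, Sox6, Sox11 and Sox12). The 250 bases before 4 of these starts are printed from RefSeq, 5′ to 3′ on the strand of the gene, which was the minus strand in each case. The 3 SoxC promoters are shown because their regions were the 3 most accessible per kb among the promoter regions of these genes. The fourth, an internal start of Sox6, is shown because its region had the lowest log2 fold change among the promoter regions at these genes. Capitals mark matches, on either strand, to the letters ACAAT and ACAAAG (cores of Sox sites), GGGAGGG (a core of Maz sites) and CCAAT.
Sox4, chr13:28953700-28953949: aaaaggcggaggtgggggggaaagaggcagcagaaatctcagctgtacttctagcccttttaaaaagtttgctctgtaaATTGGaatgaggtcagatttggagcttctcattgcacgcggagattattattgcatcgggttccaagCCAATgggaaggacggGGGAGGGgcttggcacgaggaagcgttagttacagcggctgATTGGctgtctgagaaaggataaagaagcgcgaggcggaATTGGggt
Sox11, chr12:27342719-27342968: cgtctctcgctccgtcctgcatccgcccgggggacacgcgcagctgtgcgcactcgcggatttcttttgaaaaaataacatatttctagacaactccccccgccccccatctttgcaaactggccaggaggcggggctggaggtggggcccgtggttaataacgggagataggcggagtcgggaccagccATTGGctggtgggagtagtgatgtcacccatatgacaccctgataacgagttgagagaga
Sox12, chr2:152398047-152398296: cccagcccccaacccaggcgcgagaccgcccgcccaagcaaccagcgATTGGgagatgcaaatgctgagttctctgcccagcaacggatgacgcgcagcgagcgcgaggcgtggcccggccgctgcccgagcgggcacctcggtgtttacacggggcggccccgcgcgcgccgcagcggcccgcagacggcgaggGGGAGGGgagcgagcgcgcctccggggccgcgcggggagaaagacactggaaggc
Sox6 internal start, chr7:115824711-115824960: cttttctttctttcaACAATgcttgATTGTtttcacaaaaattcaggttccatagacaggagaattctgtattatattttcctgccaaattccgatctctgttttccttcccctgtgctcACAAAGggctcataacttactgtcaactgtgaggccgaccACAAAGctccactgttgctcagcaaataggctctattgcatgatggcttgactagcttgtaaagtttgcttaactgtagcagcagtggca

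The SoxC sequences held no match to ACAAT or ACAAAG. Each of them held CCAAT, which was present 4 times at Sox4 and once at Sox11 and at Sox12. The letters GGGAGGG stood in the Sox4 and Sox12 sequences. The Sox6 internal start held 2 matches to ACAAT and 2 to ACAAAG, and neither GGGAGGG nor CCAAT. Among all 32817 promoters of the RefSeq table, cut to the same 250 bases, 27.7% held ACAAT, 16.5% ACAAAG, 19.7% GGGAGGG and 33.8% CCAAT. The Sox12 sequence was 74.4% G and C and the Sox6 internal one 41.6%, against a median of 52.4% over all promoters. A match describes letters only and does not show that a factor was bound.

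The libraries held between 6492996 and 12292629 counts in regions, and the 49 Sox regions took between 0.0873% and 0.101% of them (95% Wilson intervals, which cover counting error only, from 0.0855% to 0.103%). Counts per Sox region ranged from 27 to 1198 in a library. The share (mean ± SD of the 3 libraries) was 0.0938% ± 0.00637 at E14.5 and 0.0902% ± 0.00402 at P0, a difference of -0.00363 percentage points. A two-sided exact permutation test gave p = 0.6, where the design allows no p below 0.1. The difference was 0.000372 with promoter regions left out, -0.000183 without E14.5 replicate 2 and -0.00563 without the region with the most counts in the total. The permutation test gave p = 0.9 with promoter regions left out and p = 0.2 without that region. The highest mean level of a region in the table was 88512.9 CPM. As a check of the isolate, promoter regions were found for 6 of 8 nephron progenitor markers (not for Crym and Meox1), for 0 of 6 immune markers, for 2 of 6 endothelial and 2 of 6 stromal ones, for 5 of 6 ureteric ones, for 3 of 7 markers of the differentiating nephron and for 2 of 5 of neural crest and glia. The summed promoter level of the differentiating nephron markers ran from 119.9 to 138.6 CPM at E14.5 and from 131.5 to 157.6 CPM at P0. That of the stromal markers ran from 58.2 to 69.6 CPM and from 46.3 to 60.5 CPM, and that of the progenitor markers from 176.7 to 179.6 CPM and from 146.5 to 188.7 CPM. The stages overlapped in each of these lists, no marker promoter passed in edgeR, and their part in the Sox values was not tested. Open promoters do not show expression, so this check separates cell types only coarsely. It did not separate progenitor from ureteric markers, with a mean of 21.7 and 23.5 CPM per listed gene. The labels do not say more of how the litters were kept, and p-values set the difference between stages against the spread between these litters.

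Of the 49 Sox regions, 1 changed between the stages in edgeR's quasi-likelihood test at a Benjamini-Hochberg adjusted p under 0.05, and it fell. Over all regions 4.73% passed that threshold, 1.79% higher and 2.94% lower at P0. That share is 2059 regions, a count that ran from 339 to 2982 in the fits without each library. An unadjusted p under 0.05 was reached by 3 Sox regions (6.12%), against 18.7% of all regions. Without P0 replicate 3 it was reached by 6 Sox regions, and the share of all regions in that fit is not given here. The 3 P0 libraries lay entirely on one side of the 3 E14.5 libraries in 5 Sox regions (10.2%), against 24.2% of all regions. The median log2 fold change (P0 over E14.5) was -0.03 in the Sox regions and 0.01 over all regions, and the median absolute value was 0.13 against 0.25. The Sox median was 0.03 with total-count scaling, where that of all regions was 0.07, and -0.11 without P0 replicate 2. A log2 fold change within 0.5 of zero was measured in 46 of the 49 (93.9%) and in 78.6% of all regions. Of the 48 regions that did not pass, 46 had a 95% interval that stayed within a 2-fold change in either direction, and 2 had one that reached beyond it, both at Sox6.

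**Figure D1:**
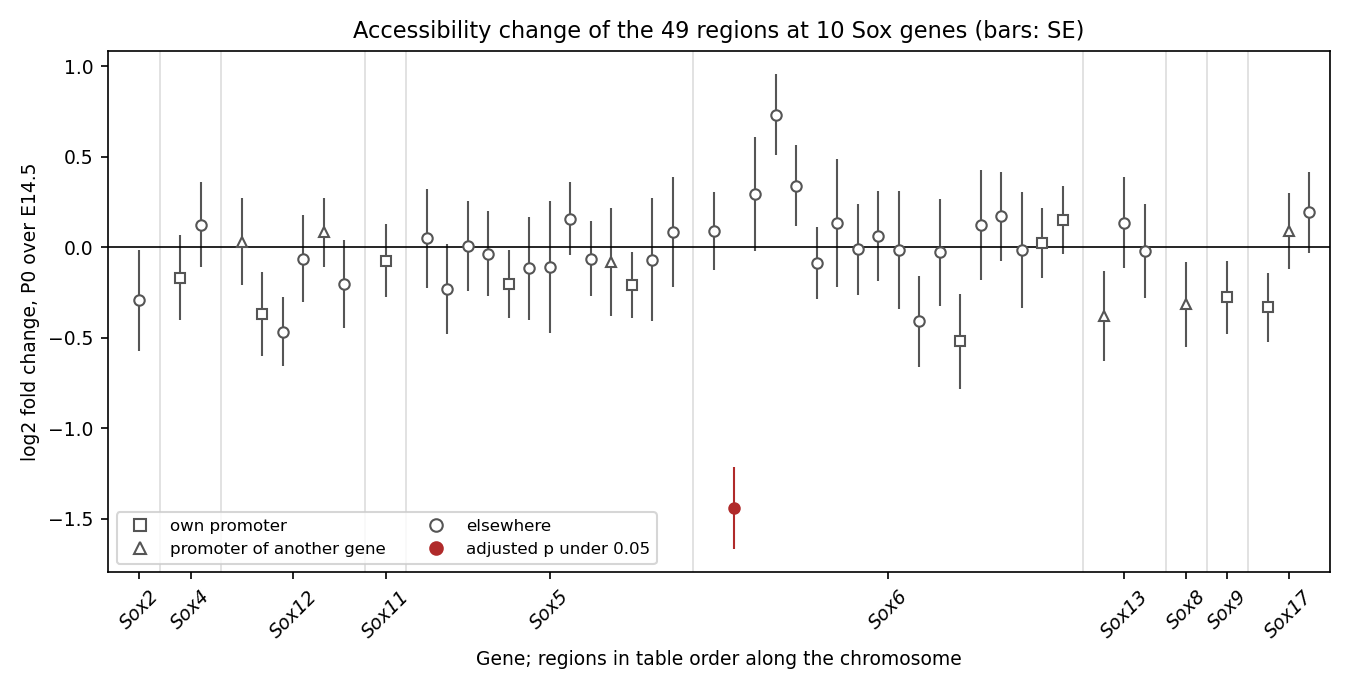
Log2 fold change of accessibility (P0 over E14.5, y axis) for each of the 49 regions at the 10 Sox genes (x axis, in order along the chromosome), with bars for the standard error, squares for promoters of the gene itself, triangles for promoters of other genes and circles for the rest. The single filled point, at Sox6 with -1.44, is the region past the threshold, and the others lie between -0.52 and 0.73.

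**Figure D2:**
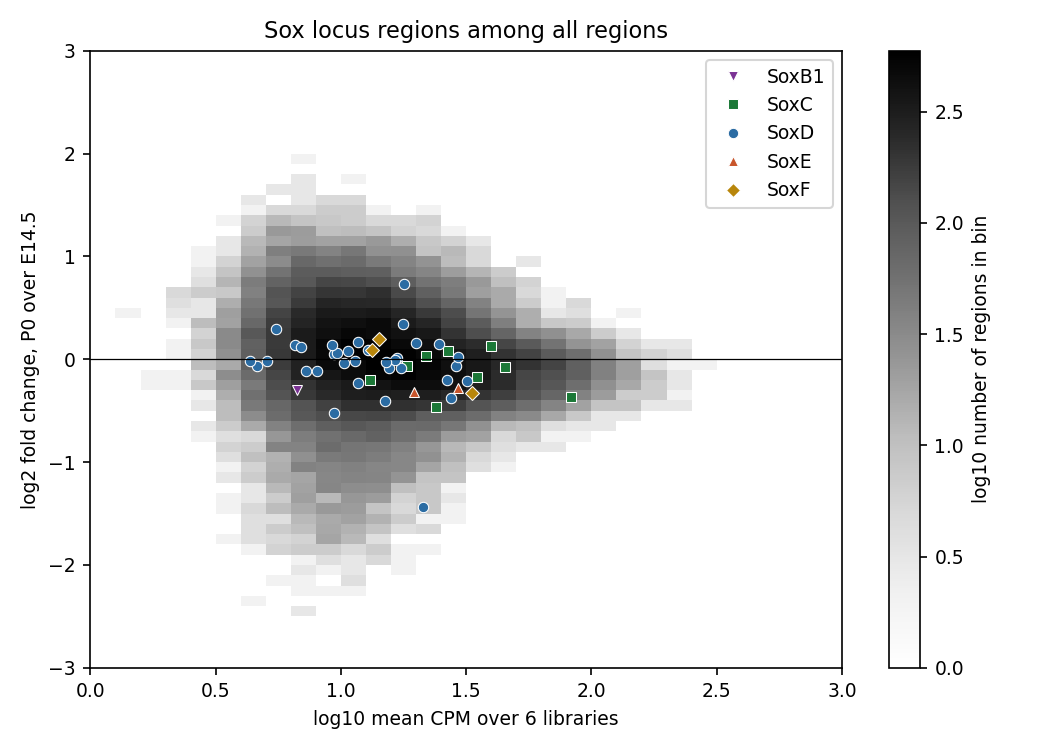
Mean CPM over the 6 libraries (x axis, log10) against the log2 fold change (y axis) for all regions as grey bins and for the 49 Sox regions as points by group. Regions outside the axis limits are not drawn, and bins with 1 region appear white. The Sox regions span 4.32 to 82.8 mean CPM, and all but 3 lie within 0.5 of zero.

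The regions were spread unevenly over the genes. The SoxD genes held 34 of the 49, with 18 at Sox6, 13 at Sox5 and 3 at Sox13. Sox12 had 6 regions, Sox17 had 3 and Sox4 had 2. Sox2, Sox8, Sox9 and Sox11 had 1 region each. Sox5 and Sox6 are also the longest of the 10 genes, with RefSeq gene bodies of 953.9 kb and 569.9 kb, though the number of regions did not follow length throughout, since Sox6 had more than Sox5. By position, 10 regions were promoters of the Sox gene itself, at 7 of the genes. One of the 10, at Sox6 from 116030302 to 116033348, is listed by the table as the promoter of 1110006G14Rik and was counted here because it covers a RefSeq start of Sox6. A further 23 lay in a gene body outside promoters, 9 between genes, 6 at the listed promoter of another gene and 1 inside another gene. The called region was among the 23 in gene bodies.

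The single change that passed at these loci was a loss of accessibility at a region deep within Sox6. The gene encodes a SoxD factor known from cartilage, erythroid and muscle development. The region lay on chromosome 7, from 115500225 to 115502256 (mm10), inside the gene and outside its exons, 539.5 kb downstream of the 5′ end. Its level was 22.4, 32.1 and 38.4 CPM (counts relative to the TMM-scaled library size) in E14.5 replicates 1, 2 and 3, from 189, 367 and 329 counts. In P0 replicates 1, 2 and 3 it was 10.8, 10.7 and 12.6 CPM, from 104, 71 and 159 counts. Every P0 library lay below every E14.5 library, and the E14.5 libraries differed more among themselves than the P0 libraries did. The mean fell from 31.0 ± 8.06 to 11.4 ± 1.02 CPM (SD over 3 libraries). In log2 units the fold change was -1.44 (SE 0.23, edgeR adjusted p = 0.00333), so that accessibility was 2.71-fold lower at birth. It ranked 373 by size of the loss among the 1281 regions that fell. It passed in each of the 11 alternatives run for it, with adjusted p-values from 3.84e-06 to 0.0355. The authors' deposited table gave this region a log2 fold change of -1.34 with an adjusted p-value of 0.0475 and classed it as closing.

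The table listed 10 motif matches in the Sox6 region, among them Sox2, Sox3, Sox4 and Sox9 within a few bases of each other around position 1458 of the region. The listed stretches of these 4 names overlapped. A second group, of the forkhead names Foxo1, Foxo3, Foxk1 and Foxp2, stood near position 131. The motif set and its score threshold are not given in the sources used here, and the sequence of this region was not used here.

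A region on the same stretch of Sox6 had the opposite sign. It ran from 115509439 to 115510535, with 7.18 kb between it and the region that fell. Its level was 11.9, 16.6 and 11.9 CPM in the E14.5 libraries and 27.4, 19.1 and 20.8 CPM in the P0 libraries. The stages did not overlap there, but the log2 fold change of 0.73 (SE 0.22) had an edgeR adjusted p of 0.0767 and did not pass. Without E14.5 replicate 2 it was 0.91 with an adjusted p of 0.0381, and over all alternatives the adjusted p ran up to 0.403, without P0 replicate 1. The authors' deposited table classed it as opening, with an adjusted p-value of 0.0940. Between the pair lay 1 further region, at 115505765 to 115506776 (log2 fold change 0.29, SE 0.32). The next region on the far side, at 115511056 to 115512428, had one of 0.34 (SE 0.22). Neither passed.

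The ratio of counts in the pair does not depend on the scaling of libraries. The region that fell had 1.89, 1.94 and 3.23 times the counts of its neighbour in the E14.5 libraries, and 0.395, 0.563 and 0.605 times in the P0 libraries. The order of the pair was thus reversed in all 3 libraries of each stage, and the mean log2 ratio differed by -2.15. The neighbour was chosen after its values were seen, so the ratio is a description without a test.

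**Figure D3:**
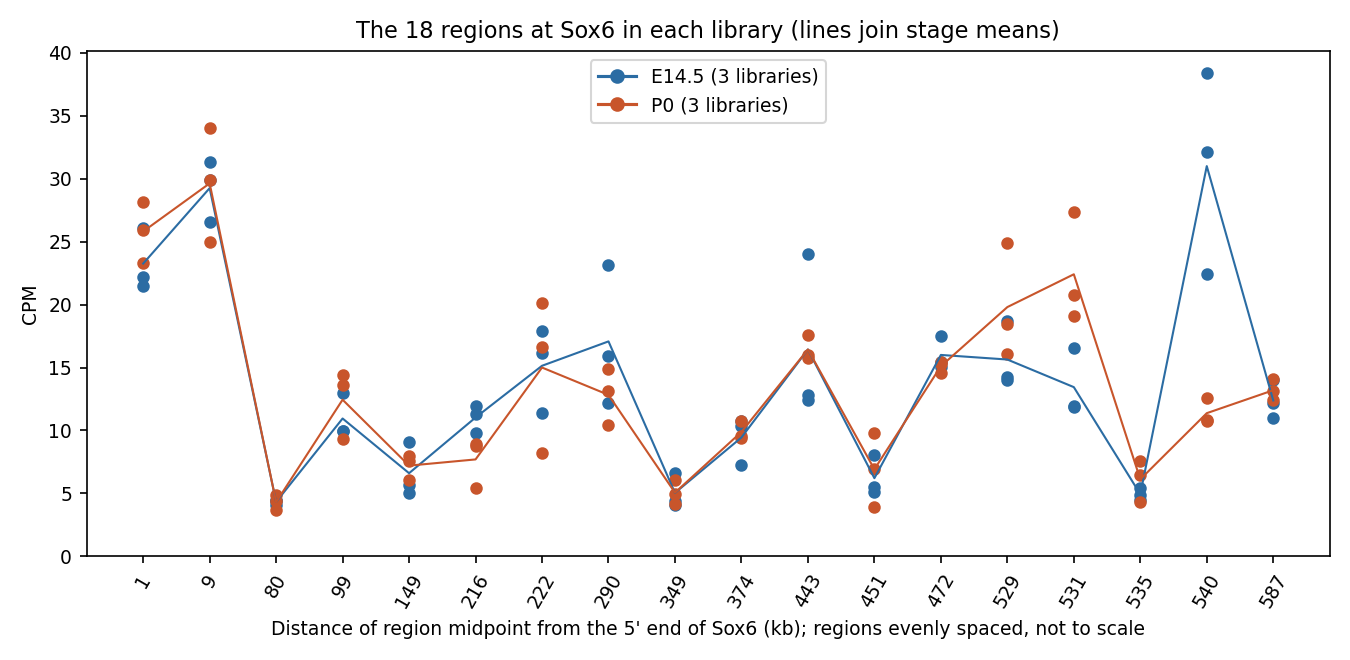
CPM (y axis) in each library for the 18 regions at Sox6, ordered by the distance of their midpoint from the 5′ end of the gene in kb (x axis, evenly spaced and not to scale), with lines joining the stage means. At 539.5 kb the E14.5 points (22.4 to 38.4 CPM) lie above the P0 points (10.7 to 12.6 CPM), and 2 positions to the left, at 530.8 kb, the P0 points (19.1 to 27.4 CPM) lie above the E14.5 points (11.9 to 16.6 CPM).

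The remaining Sox6 regions had log2 fold changes between -0.52 and 0.34. The lowest of these, -0.52 (SE 0.27, edgeR adjusted p = 0.314), was at the promoter region of the internal start printed above, from 115824299 to 115825343. Its level was 12.0, 11.3 and 9.81 CPM at E14.5 and 5.41, 8.93 and 8.76 CPM at P0. The stages did not overlap but the difference did not pass. The region at the first exon, from 116038101 to 116041157, had 21.5, 26.1 and 22.2 CPM at E14.5 and 25.9, 23.3 and 28.2 CPM at P0, and these ranges overlapped (log2 fold change 0.15, SE 0.19). Summed over its 18 regions, Sox6 had 248.1 ± 24.9 CPM at E14.5 and 241.2 ± 10.03 CPM at P0 (SD over 3 libraries). The log2 fold change was -0.04, with a 95% interval from -0.37 to 0.29.

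Sox5, the closest relative of Sox6, had 13 regions and none of them passed. Their log2 fold changes ran from -0.23 to 0.16. The region at the 5′ end, from 144780105 to 144783692 on chromosome 6, had 34.3, 32.9 and 35.4 CPM at E14.5 and 30.3, 31.8 and 26.8 CPM at P0. The P0 libraries all lay below the E14.5 libraries, by a log2 fold change of -0.21 (SE 0.18, edgeR adjusted p = 0.593) that did not pass. The Sox5 region outside promoters with the highest CPM (not corrected for length), spanning 144594333 to 144597550, had little difference between the stage means (log2 fold change -0.06, SE 0.21). Sox13, a SoxD gene known from T cells, had 2 regions within the gene, with log2 fold changes of 0.14 and -0.02. The third region in its window was a listed promoter of the neighbouring gene Etnk2 and had 26.3, 34.9 and 32.1 CPM at E14.5 and 14.4, 26.5 and 30.9 CPM at P0, which overlapped. No region of the table covered the Sox13 start.

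Among the SoxC genes, none of the 9 regions passed. The Sox12 promoter region, from 152396017 to 152399460 on chromosome 2, had the highest mean CPM of the 49, with 104.7, 78.9 and 96.5 CPM at E14.5 and 68.9, 53.0 and 94.6 CPM at P0. The stages overlapped, since P0 replicate 3 lay above E14.5 replicate 2, and the log2 fold change was -0.37 (SE 0.23, edgeR adjusted p = 0.436). An intergenic region 8.39 kb upstream of Sox12, from 152405656 to 152407216, had 30.6, 25.7 and 27.0 CPM at E14.5 and 20.0, 17.6 and 22.4 CPM at P0. The stages did not overlap there, and the log2 fold change of -0.47 (SE 0.19) had an edgeR adjusted p of 0.194. The table listed a FANTOM enhancer for it. The other 4 regions near Sox12 had log2 fold changes from -0.20 to 0.08, and 3 of them lay in or at the promoter of other genes.

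The Sox4 promoter region, from 28951831 to 28954077 on chromosome 13, had 33.2, 35.2 and 43.3 CPM at E14.5 and 31.3, 23.0 and 44.4 CPM at P0. The P0 libraries spanned the whole range of E14.5. An intergenic region 5.27 kb upstream, from 28957849 to 28960096, had the highest mean CPM of the Sox regions outside promoters (38.8, 35.3 and 40.1 at E14.5 and 43.2, 26.5 and 54.1 at P0). In both Sox4 regions P0 replicate 2 was lowest and P0 replicate 3 highest of the 6 libraries. The single Sox11 region, at its promoter from 27341182 to 27344365 on chromosome 12, had 47.2, 42.6 and 50.1 CPM at E14.5 and 42.2, 36.6 and 53.6 CPM at P0. Its log2 fold change was -0.07 (SE 0.20), with a 95% interval of -0.50 to 0.35.

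The SoxE, SoxF and SoxB1 genes had few regions. At Sox9, which marks ureteric tips and is switched on in injured tubules, the only region was its listed promoter, from 112781039 to 112784035 on chromosome 11. It had 27.5, 36.5 and 32.6 CPM at E14.5 and 22.9, 24.8 and 31.9 CPM at P0, which overlapped (log2 fold change -0.28, SE 0.20, edgeR adjusted p = 0.509). The summed promoter accessibility of the ureteric markers ran from 137.0 to 163.9 CPM at E14.5 and from 115.2 to 146.4 CPM at P0, and its part in the Sox9 values was not tested. At Sox17 the listed promoter region, from 4491583 to 4494101 on chromosome 1, had 40.0, 39.4 and 32.1 CPM at E14.5 and 33.0, 29.2 and 26.5 CPM at P0 (log2 fold change -0.33, SE 0.19, edgeR adjusted p = 0.383). P0 replicate 1 lay above E14.5 replicate 3, so the stages overlapped. The only Sox17 region outside promoters, from 4543514 to 4546011, had 12.2 to 13.9 CPM at E14.5 and 12.6 to 18.9 CPM at P0. Promoters of endothelial markers, a cell type in which Sox17 is active, had 56.1 to 62.1 CPM at E14.5 and 59.6 to 71.4 CPM at P0, with only Kdr and Flt4 of the 6 markers represented. Their part in the Sox17 values was not tested.

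Neither Sox8 nor Sox2 had a region at its own start. The only region within 50 kb of Sox8 was the listed promoter of Lmf1, on chromosome 17 from 25578517 to 25580399, with 15.6 to 28.1 CPM at E14.5 and 15.0 to 20.8 CPM at P0. Near Sox2 the only region lay 10.4 kb upstream, on chromosome 3 from 34639102 to 34640117. Its levels, 7.83, 6.57 and 7.59 CPM at E14.5 and 5.10, 6.96 and 5.92 CPM at P0, were below the median region of the table (14.3 CPM). The stages overlapped at both, and neither region passed in edgeR (adjusted p = 0.516 near Sox8 and 0.632 near Sox2).

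Compared per kb of region, the promoters of the Sox genes formed an order whose first place was the same in every library, while the places just below it were not. Sox12 led with 24.0 ± 5.67 CPM per kb (SD over the 6 libraries) and exceeded the next, Sox4, in 6 of 6 libraries. Sox4 (15.6 ± 3.55), Sox11 (14.3 ± 1.93) and Sox17 (13.2 ± 2.15) followed, and neighbours in this order did not differ beyond their spread, with Sox4 above Sox11 in 4 libraries and Sox11 above Sox17 in 3. Sox17 exceeded the next, a Sox5 promoter (10.5 ± 1.18), in 6 of 6. From there to the last, the promoter at the first exon of Sox6 (8.02 ± 0.854), the levels lay close together. The Sox12 region stood above 79.2% of all promoter regions of the table, and that of Sox6 above 16.7%. None of the 10 own promoter regions passed, with edgeR adjusted p-values from 0.314 to 0.967, and 0.851% of all promoter regions did. Their median log2 fold change was -0.21, with 8 of 10 below zero. Over all promoter regions the median was -0.10 and 66.0% were below zero.

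**Figure D4:**
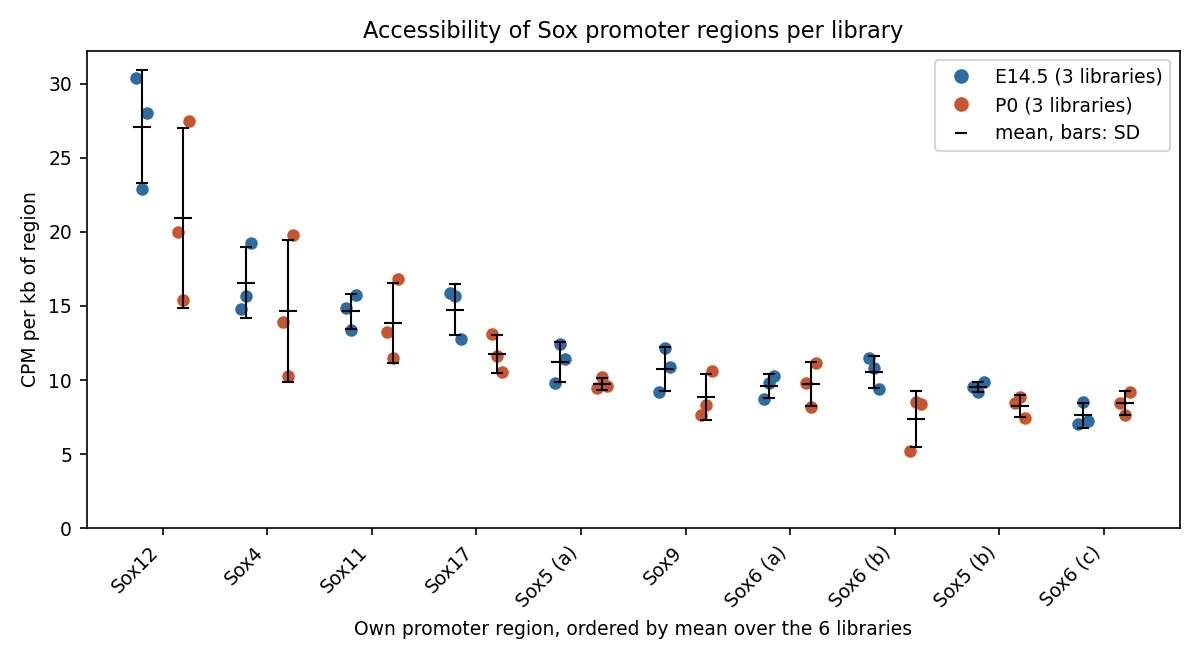
CPM per kb of region (y axis, from 0) in each of the 6 libraries for the 10 promoter regions of Sox genes, ordered by their mean, with stage means and bars for the SD. Letters mark several promoters of 1 gene, namely Sox5 (a) 572.5 kb and (b) 0.388 kb from the 5′ end, and Sox6 (a) 8.95 kb, (b) 216.0 kb and (c) 1.15 kb from it. Sox12 is highest in every library, and the stages overlap except at Sox5 (b) and Sox6 (b).

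Counts were also summed over all regions of a gene and its 50 kb flanks, for 19326 protein-coding genes, among which neighbours share regions. None of the 10 Sox loci passed in edgeR at an adjusted p under 0.05, 0 had an unadjusted p under 0.05, and 0 passed in the DESeq2 Wald test. Over all loci, 0.0414% passed in edgeR and 11.3% had an unadjusted p under 0.05. Without P0 replicate 3, 2 of the 10 had an unadjusted p under 0.05 and 0 passed, while 302 of all loci passed. The share of all loci with an unadjusted p under 0.05 in that fit is not given here. The log2 fold changes ran from -0.32 at Sox8 to -0.01 at Sox4, with adjusted p-values from 0.555 to 0.983. All 10 were below zero, but 8 were with scaling to total counts, with 100 kb flanks or without P0 replicate 2, and 4 of the 7 loci that kept a region were with promoter regions left out. The median over all loci was itself -0.10 against -0.15 for the Sox loci. The 95% intervals of the 10 loci stayed between -0.94 and 0.40, so none reached a 2-fold change.

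**Figure D5:**
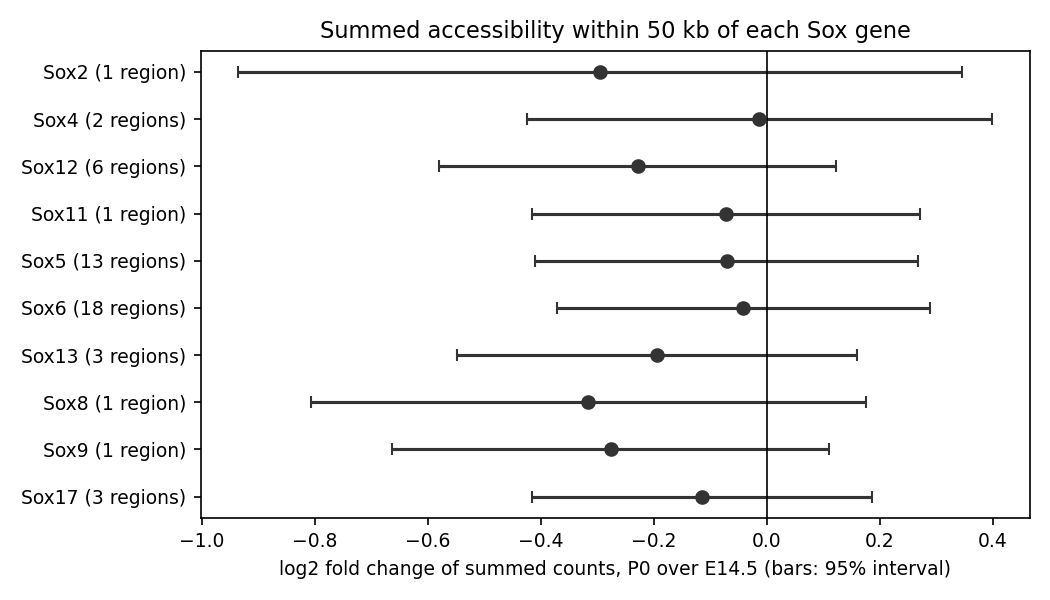
Log2 fold change of counts summed over the regions of each Sox gene and its 50 kb flanks (x axis, P0 over E14.5), with bars for the 95% interval from edgeR. Every interval includes 0, the widest being that of Sox2 (-0.94 to 0.35), where 1 region of low count stands for the locus.

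Motif names for Sox factors were listed in 9 of the 49 regions (18.4%), against 13.2% of all regions. The Sox regions were somewhat longer, with a median of 1883 bp against 1599 bp. Of these 9 regions, 8 lay at SoxD genes and 1 near Sox8, and 0 of the 10 own promoter regions carried such a name. The called Sox6 region was 1 of the 9, and the other 8 did not reach an unadjusted p under 0.05. Over the whole table, 5.18% of regions with a Sox motif name changed. Forkhead names stood in 8 of the 49 (16.3% against 21.0% of all), Maz in 10 (20.4% against 21.3%) and Sall names in 9 (18.4% against 16.8%). FANTOM enhancers were listed at 9 regions (18.4% against 9.65%). Elements of the VISTA collection of embryonic enhancers were listed at 3 (6.12% against 0.655%), namely the promoter regions of Sox9 and Sox12 and an exon of Sox6, from 115597082 to 115599027.

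Of 9 further Sox genes, 5 (Sox10, Sox15, Sox18, Sox21 and Sox30) had a region in the same window. Of their 19 regions, 0 passed in edgeR, against 4.73% of all regions. An unadjusted p under 0.05 was reached by 1 (5.26%), against 18.7% of all regions. A list of 24 genes known to work with or downstream of Sox factors had 91 regions at 22 genes, of which 6 changed (6.59%, against 4.73% of all regions). Accessibility rose in 4 of the 6 and fell in 2. In the window of Pou3f3, a POU factor gene of the nephron, accessibility between 42718280 and 42719252 of chromosome 1 rose, with 6.10 ± 0.769 CPM at E14.5 and 16.4 ± 2.51 CPM at P0 (SD over 3 libraries; log2 fold change 1.43, SE 0.24, edgeR adjusted p = 0.00442). At Col9a1, a cartilage collagen gene and classical Sox9 target, a listed promoter region fell (log2 fold change -1.41, SE 0.26, edgeR adjusted p = 0.00739) and an intergenic region rose (1.30, SE 0.32, adjusted p = 0.0283). Near Cdh5, the endothelial cadherin gene, 1 region rose by 0.93 and another fell by 0.94 on the log2 scale (edgeR adjusted p = 0.0411 and 0.0396). Of 8 regions at Pax8, 1 intergenic region, from 24416364 to 24418243 on chromosome 2, rose (log2 fold change 0.98, edgeR adjusted p = 0.0126). No region of Six2, Wt1, Sall1, Ctnnb1, Lef1, Etv4 or Etv5 passed.

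By the summed counts, Sox9 had the smallest p of the 10 loci, and its profile over the 6 libraries was most like that of Oma1 (Pearson r = 0.98), Oxa1l (0.97) and Lrp8 (0.97) among 11804 genes on other chromosomes with at least 3 regions. Values above 0.9 were reached by 47 genes. With 6 libraries that share depth and scaling, these correlations are a description and carry no test.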

How the data were processed

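ATAC-seq counts were available for 6 libraries, 3 at E14.5 and 3 at P0. Up to 24 kidneys of a litter were pooled, cells were selected with Itga8 antibodies, and 50000 cells were used per library, per the labels' protocols. The deposited table gives a whole-number count per region and library, per the file headers. The build mm10 is named in the submitters' processing notes. The aligner, peak caller, counting rule, Tn5 shift and duplicate handling are not given in the sources used here, and each could change the counts. The authors' log2 fold change and p-value columns were made with a model that the headers do not describe, and were quoted only where named. Columns were matched to libraries by title, with 0 unmatched.

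Of 45489 rows, 1966 repeated a region and were counted once. The test over regions was that of edgeR 4.0.16, run under R 4.3.3 (TMM, filterByExpr, which removed 0 regions, quasi-likelihood F test on stage), with Benjamini-Hochberg adjustment over all regions. The standard error is the fold change divided by the square root of F. The fit was tested on simulated data. Gene spans and promoters came from RefSeq, and gene names from pairs in the table. Own promoters were regions listed as such or within 1 kb of a start. Alternatives used DESeq2 1.42.0, limma-voom 3.58.1, other scalings, filters, windows, a replicate block, and fits without each library. The text names regions past the threshold and, per gene, its promoter, its smallest p and its region outside promoters with the highest CPM. Other regions, such as the neighbours within Sox6 and the regions of Sox13, were chosen after their values were seen. The genes and lists were chosen with earlier results of these data known.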

Additional observations from a re-analysis of the deposited data

How the results depend on the processing

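Both filter alternatives removed 0 regions, so they repeat the reported fit and bear on nothing. The Sox6 region that fell was called with the other scalings and tests, with the replicate block, with overlapping regions dropped and without each library. The number of called Sox regions was 2 at an adjusted p under 0.1, where the share of all regions is not given here. With a window of 100 kb it was 2 of 67. It was between 1 and 2 over the fits without each library, with 2 only without E14.5 replicate 2, where the Sox6 neighbour was added. Over all regions the count ran from 339 without E14.5 replicate 3 to 2982 without E14.5 replicate 2, also 474 without P0 replicate 1 and 1099 without E14.5 replicate 1, against 2059. Total-count scaling moved the median of the Sox regions from -0.03 to 0.03 and that of all regions from 0.01 to 0.07. Without each library the median of the Sox regions ran from -0.11 (without P0 replicate 2) to -0.01 (without E14.5 replicate 2), and was -0.07 without E14.5 replicate 1 and -0.05 without E14.5 replicate 3. With promoters left out, the difference in the share of counts changed sign to 0.000372 percentage points. Without each library it ran from -0.00647 (without E14.5 replicate 1) to -0.000183 (without E14.5 replicate 2), and was -0.00593 without P0 replicate 3 and -0.00221 without P0 replicate 1, against -0.00363. On summed counts, 0 Sox loci were called in any of 13 alternatives, while the count over all genes was 145 in DESeq2, 52 with total-count scaling, 24 and 1 with windows of 10 kb and 100 kb, 75 without promoters, and 5 to 302 without each library, against 8. Same-numbered libraries did not deviate together (correlations from -0.140 to 0.0767), so the numbers were not read as pairs. With the replicate block the number of called Sox regions was 1, the median -0.03 and the number of called Sox loci 0, and 371 loci were called over all genes. Sox regions held 27 to 1198 counts per library, and with 3 libraries per stage the width of the 95% intervals limits what could be detected.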

Other observations

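Within 100 kb of the Sox genes lay 67 regions, against 49 within 50 kb, and 1 of the added regions changed, where 4.73% of all regions did. It lay between genes near Sox17, on chromosome 1 from 4426276 to 4427883. Its level was 27.6, 28.8 and 38.5 CPM at E14.5 and 13.4, 11.3 and 14.4 CPM at P0, so every P0 library lay below every E14.5 library. The log2 fold change was -1.27 (SE 0.21, edgeR adjusted p = 0.00395). The region is named because it passed with the wider window, and no link to Sox17 was measured.

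The table also names predicted target genes for regions. Of 158939 pairs of a region and a predicted gene, 857 (0.539%) named a gene on the chromosome of the region, whereas 99.97% of the overlapped genes did. Among the 49 Sox regions, 14 carried predictions and 0 named their own Sox gene. Of 76 regions that named one of the 10 Sox genes, 2 lay on its chromosome. The predicted targets were therefore not used.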
